A study of Mus musculus with 15 samples.

Results

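The lungs of tumour-bearing mice were set against the lungs of control mice, in 9 of the 15 lungs sequenced in the study. The 5 PT lungs (numbered 1, 2, 3, 5 and 6) came from mice with a primary tumour (PT), grown from 143B Luc+ cells injected under the skin of the lower flank. The cell line 143B derives from a human osteosarcoma, and Luc+ cells carry a luciferase reporter. The 4 CTR lungs (numbered 1, 2, 4 and 5) came from control mice, for which the labels give no treatment. The other 6 lungs, from SCR-treated mice given the 143B secretome (what the cells release into their medium), entered the model that estimates the spread between lungs. All mice were Athymic Swiss nude (Foxn1nu/nu), adult, and male or female. Such mice have no working thymus and lack most mature T cells, while neutrophils, macrophages, NK cells and B cells remain. PT and CTR lungs were chosen by their titles alone, and all genes with enough reads were described.

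Before a solid tumour seeds a distant organ, factors it releases can alter that organ, a state known as the premetastatic niche. In the lung, such a niche is known for the arrival of neutrophils and monocytes, which are drawn from the blood by chemokines and carry calprotectin (S100a8 and S100a9), and for changes in the extracellular matrix. The matrix has an interstitial part, built of fibrillar collagens made by fibroblasts, and thin basement membranes of type IV collagen, laminins, nidogens and perlecan, on which the epithelium and the capillary endothelium rest. In an extract of whole lung, fewer cells of a type and less RNA per cell cannot be told apart.

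Total counts were 12767431 to 17386086 per PT lung and 14167644 to 22109856 per CTR lung. Of 46603 genes in the count table, 15870 had enough reads to be tested. Defining lung transcripts were abundant in PT and CTR lungs. The lowest level of Sftpc, of alveolar type 2 cells, was 14588 CPM in PT lungs and 14251 CPM in CTR lungs, and that of Scgb1a1, of club cells, was 22260 CPM in PT lungs and 19917 CPM in CTR lungs. CPM are counts set to a common library size, with each library scaled by TMM, a factor that equalizes the bulk of genes between lungs. PT lungs 3 and 5 came from females by Xist and Y-linked genes, and all CTR lungs from males, so part of the PT group differs from CTR in sex as well. Compared in pairs by chi-square per degree of freedom, CTR lungs 1 and 5 differed least (22.95), then CTR lungs 2 and 4 (34.69). The other pairs of CTR lungs were at 63.5 to 76.18. The class of tested genes lowest in GC content showed the same split. Its mean log2 CPM was 4.44 and 4.34 in CTR lungs 1 and 5, against 3.72 and 3.84 in CTR lungs 2 and 4. The cause of the split was not tested. In some gene lists, CTR lung 5 stood apart from the other CTR lungs. It lay near the PT lungs in markers of several leukocyte classes and in collagens, for example in monocyte genes (mean log2 CPM 6.21, against 5.14 to 5.28 in the other CTR lungs). SCR lungs 1 to 3 also stood apart, with glucocorticoid response genes at 6.63, 6.68 and 6.45 mean log2 CPM against 4.80 to 5.68 in all other lungs. Their mesothelial markers were at 3.43, 2.03 and 1.04 against 3.66 to 5.23, where SCR lung 1 was close to PT lung 1 (3.66). Group results that rest on CTR lung 5 are given with and without it.

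The first question was how many genes differed between the lungs of PT-bearing mice and those of controls. With edgeR's quasi-likelihood test across 15870 genes, 0 genes (0.0% of those tested) passed an adjusted p under 0.05, and the lowest adjusted p was 0.0764, for Stk32c. Before adjustment, 465 genes had a p under 0.05 and a higher mean in PT lungs (2.93% of those tested), and 751 a lower one (4.73%). When the log2 fold change also had to exceed 1 in either direction, 124 genes were higher (0.781%) and 29 lower (0.183%). The PT lungs did not overlap the CTR lungs in 239 genes that were above (1.51%) and 297 that were below (1.87%). DESeq2 called 20 genes at an adjusted p under 0.05, 14 higher and 6 lower, with Saa3, Stk32c, Fosb and Timp1 among them and also Xist, which follows sex. Without CTR lung 5 in the model of all groups, 1 gene passed the adjusted threshold, and with only the PT and CTR lungs in the model, 0 did. With both changes together, 176 genes passed, 130 higher and 46 lower, and 112 of them had an unadjusted p under 0.05 and the same sign with all lungs. Leaving out any of the other 8 lungs from the model of PT and CTR lungs gave 0 genes. In the model of all groups, 3 genes passed without PT lung 2, all higher. Leaving out any PT or CTR lung other than it and CTR lung 5 from that model gave 0. The combined alternative was chosen after the data were seen. With all groups in the model, the unadjusted counts were 745 higher and 1073 lower without CTR lung 5, and 255 higher and 317 lower without CTR lung 4. Lower genes numbered 500 without PT lung 3 and 495 without PT lung 5. Scaled by library size alone, 670 genes were higher and 370 lower, and the median log2 fold change of all genes was 0.05 in place of 0.01.

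Among the genes with the smallest p was Saa3, an acute phase serum amyloid that attracts myeloid cells (chromosome 7, 46711998 to 46715700, GRCm38). Its level was 61.5, 17.3, 32, 63.3 and 50.5 CPM in PT lungs 1, 2, 3, 5 and 6, against 2.61, 2.91, 3.59 and 9.83 CPM in CTR lungs 1, 2, 4 and 5. No PT lung was as low as any CTR lung, and CTR lung 5 was the highest of the controls. The log2 fold change was 3.23 ± 0.53 (SE, edgeR's quasi-likelihood test, adjusted p = 0.139), and 3.87 without CTR lung 5. Stk32c, a serine/threonine kinase also on chromosome 7, had the smallest p. It stood at 6.91, 5.80, 9.13, 9.63 and 7.86 CPM in the PT lungs in the same order, against 1.40, 2.76, 2.63 and 2.90 CPM in the CTR lungs. The groups did not overlap, with CTR lung 5 the highest control and CTR lung 1 the lowest. The log2 fold change of Stk32c, 1.70 ± 0.26, was 1.80 without CTR lung 5 and 1.51 in male lungs alone. Timp1, the inhibitor of matrix metalloproteases, stood at 18.8, 6.99, 11.6, 22.2 and 18.4 CPM in PT lungs, against 4.92, 5.44, 4.79 and 6.41 CPM in CTR lungs (log2 fold change 1.53 ± 0.31, adjusted p = 0.368 by edgeR's quasi-likelihood test). PT lung 2 was the lowest PT lung for Saa3, Stk32c and Timp1, and still above all controls.

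**Figure D1:**
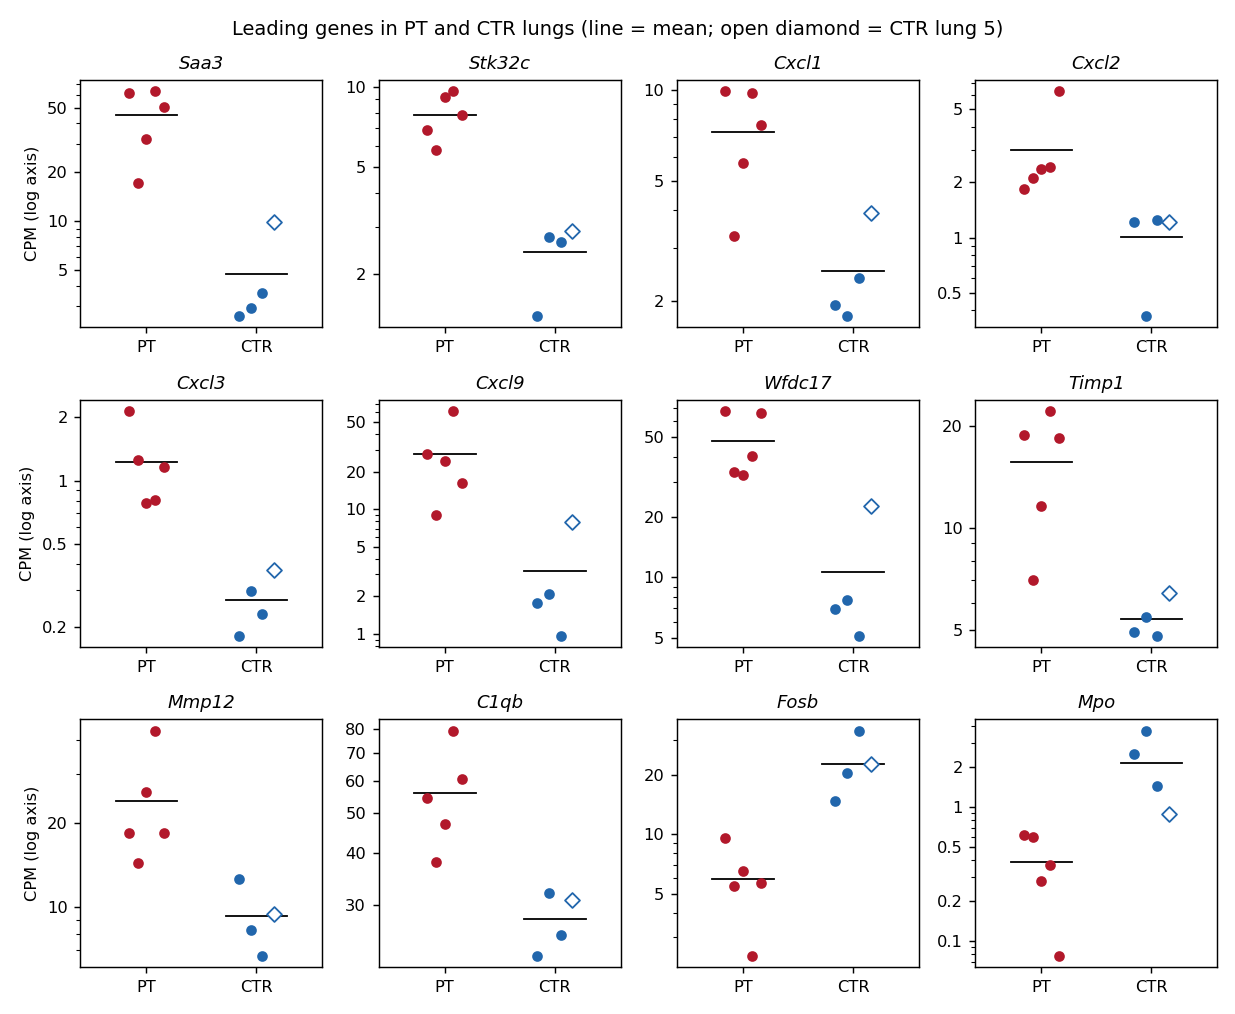
CPM per lung (log axis) of 12 leading genes, 5 PT lungs on the left and 4 CTR lungs on the right of each panel. The line is the group mean and the open diamond is CTR lung 5, which is the CTR lung nearest to the PT lungs for Saa3 (9.83 CPM) and Wfdc17 (22.7 CPM) but not for Mmp12 or C1qb.

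The chemokines that bring neutrophils into tissue act on the receptor Cxcr2, and those of mouse lie together on chromosome 5. Of 8 genes of this group tested, 4 were higher and 0 lower at an unadjusted p under 0.05, and the median log2 fold change was 1.45, beside 0.01 over all tested genes. Of all tested genes, 2.93% were higher and 4.73% lower, which is the background for this and the later list counts. These shares differed with gene length, as given below. Cxcl1 stood at 9.91, 3.30, 5.72, 9.77 and 7.62 CPM in PT lungs, against 1.94, 1.79, 2.40 and 3.93 CPM in CTR lungs, where CTR lung 5 overlapped PT lung 2. Cxcl3 stood at 2.15, 1.25, 0.784, 0.808 and 1.17 CPM in PT lungs, against 0.182, 0.298, 0.230 and 0.375 CPM in CTR lungs, from 11 to 28 and 3 to 8 counts. Cxcl2 stood at 1.84, 2.11, 2.35, 2.42 and 6.30 CPM in PT lungs, against 1.21, 0.373, 1.24 and 1.22 CPM in CTR lungs. These 3 chemokines were low transcripts in every lung, with log2 fold changes of 1.51 ± 0.32 for Cxcl1, 2.14 ± 0.52 for Cxcl3 and 1.54 ± 0.44 for Cxcl2. Cxcr2 itself, carried mainly by neutrophils, was more abundant, at 65.7 to 99.9 CPM in PT lungs and 17.8 to 61.2 CPM in CTR lungs. Cxcl5, made by the lung epithelium, was spread widely, at 0.934 to 11.3 CPM in PT lungs and 0.230 to 3.79 CPM in CTR lungs (adjusted p = 0.672 by edgeR's quasi-likelihood test). Cxcl15, the constitutive chemokine of lung epithelium, had a log2 fold change of 0.07 ± 0.21. Without CTR lung 5, 6 of the 8 were higher and the median was 1.72.

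Because Cxcl1, Cxcl2 and Cxcl3 were higher together, the 250 bases before their RefSeq start sites are shown (GRCm38.p6, plus strand). Capitals mark GGGAATTTCCC, the longest run of letters that all 3 share, of 11 bases. These stretches are chr5:90890995-90891244, chr5:90903649-90903898 and chr5:90785851-90786100.
Cxcl1: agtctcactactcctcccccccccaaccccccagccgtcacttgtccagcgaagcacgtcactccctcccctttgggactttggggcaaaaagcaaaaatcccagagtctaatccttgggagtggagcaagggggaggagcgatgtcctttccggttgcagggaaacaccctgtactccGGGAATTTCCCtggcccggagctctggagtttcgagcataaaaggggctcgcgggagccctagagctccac
Cxcl2: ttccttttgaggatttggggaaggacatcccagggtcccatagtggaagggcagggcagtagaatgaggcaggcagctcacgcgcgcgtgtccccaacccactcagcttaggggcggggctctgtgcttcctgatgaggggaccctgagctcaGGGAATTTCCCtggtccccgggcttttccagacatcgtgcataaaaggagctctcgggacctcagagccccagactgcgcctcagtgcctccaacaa
Cxcl3: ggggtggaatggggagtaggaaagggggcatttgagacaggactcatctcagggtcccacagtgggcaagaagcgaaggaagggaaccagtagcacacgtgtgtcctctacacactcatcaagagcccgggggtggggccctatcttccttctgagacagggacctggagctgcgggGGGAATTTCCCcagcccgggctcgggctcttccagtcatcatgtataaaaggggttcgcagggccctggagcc

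Each of the 3 stretches held the letters once, 60 bases before the start of Cxcl1, 86 before Cxcl2 and 62 before Cxcl3. The letters, or their reverse complement, were found in 6 of 14533 promoters of tested genes (0.0413%), of which Cxcl1, Cxcl2 and Cxcl3, which defined the letters, are 3, outside mouse chromosome 18, which was not searched. GGGAATTTCCC is the kind of site that the factor NF-kB is known to bind. The match is a description of the sequence, and binding was not measured. A separate list of 21 tested NF-kB and Tnf target genes does not hold Cxcl1, Cxcl2 or Cxcl3. Of its members, 0 had an unadjusted p under 0.05, and the median log2 fold change was 0.11. Without CTR lung 5, 2 were higher, and 4 when the model held only the PT and CTR lungs as well. A part of NF-kB was not tested. Tnf itself stood at 1.32 to 5.73 CPM in PT lungs and 0.875 to 3.28 CPM in CTR lungs (adjusted p = 0.717, edgeR's quasi-likelihood test).

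Monocytes follow CC chemokines. Of 17 CC chemokines and their receptors tested, 9 were higher and 0 lower at an unadjusted p under 0.05, with a median log2 fold change of 0.89 (10 higher, 1 lower and 1.19 without CTR lung 5). Ccr1, a receptor of monocytes and neutrophils, stood at 38.4, 31.2, 46.7, 42.0 and 43.1 CPM in PT lungs, against 17.7, 14, 14.2 and 24.3 CPM in CTR lungs. Ccl9, one of its mouse ligands, stood at 61.1, 50.2, 59.0, 72.2 and 60.5 CPM in PT lungs, against 19.2, 23.6, 20.2 and 44.4 CPM in CTR lungs. Both genes separated the groups, with CTR lung 5 the highest control each time. Ccl4, a chemokine of activated macrophages and NK cells, averaged 3.27 ± 0.862 CPM in PT lungs (SD, n = 5) and 1.19 ± 0.302 CPM in CTR lungs (SD, n = 4). Ccl2, the main monocyte chemoattractant, was at 2.24 to 12.1 CPM in PT lungs and 1.79 to 2.81 CPM in CTR lungs, where PT lung 5 was far above the rest. Ccl12 and Ccl8, related CC chemokines, had log2 fold changes of 1.54 ± 0.45 and 1.26 ± 0.52, with overlapping lungs.

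Chemokines that guide lymphocytes, NK cells and dendritic cells followed in part. Of 21 tested, 7 were higher at an unadjusted p under 0.05 and 0 lower, with a median of 0.33 (9 higher, 1 lower and 0.97 without CTR lung 5). Cxcl9, Cxcl10 and Cxcl11 are the ligands of Cxcr3 and are induced by interferon gamma. Cxcl9 stood at 27.6, 8.96, 24.4, 61.4 and 16.3 CPM in PT lungs, against 1.76, 2.09, 0.967 and 7.91 CPM in CTR lungs, a log2 fold change of 3.1 ± 1.01 with a wide spread. Ifng, the gene of interferon gamma, was low, at 0.560 to 1.62 CPM in PT lungs and 0.0607 to 0.749 CPM in CTR lungs. Of 31 interferon-stimulated genes, all had a log2 fold change above 0, but only 3 passed an unadjusted p under 0.05 (Cxcl9, Cxcl10 and Isg15), and the median was 0.42 (8 and 0.54 without CTR lung 5). In male lungs alone the median was 0.19, and without PT lung 5 it was 0.27, with 2 genes higher. Without PT lung 1 or PT lung 6, 5 genes were higher. Of all tested genes, 51.6% were above 0, and 2.93% were higher at an unadjusted p under 0.05. PT lung 5 had the highest mean log2 CPM of this list (5.90), and PT lungs 1 (4.87) and 6 (4.67) lay within the CTR range of 4.35 to 5.18. Ccl17, a ligand of Ccr4 made by dendritic cells, separated the groups at 5.54 to 15.9 CPM in PT lungs and 1.66 to 5.24 CPM in CTR lungs.

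Markers of mature neutrophils were higher as well. Of 24 tested, 11 were higher at an unadjusted p under 0.05 and 1, G0s2, was lower (median 0.87). Averaged over the list, log2 CPM was 5.03, 4.75, 4.76, 4.80 and 4.98 in PT lungs, against 3.81, 3.69, 3.38 and 4.70 in CTR lungs. CTR lung 5 lay just under the PT lungs, and the other CTR lungs well below. Without it, 16 markers were higher and the median was 1.30, and without CTR lung 4 there were 7 and 0.76. S100a8, one chain of calprotectin, stood at 523, 187, 368, 293 and 340 CPM in PT lungs, against 115, 88.7, 43.2 and 245 CPM in CTR lungs, and its partner S100a9 had a log2 fold change of 1.26 ± 0.58. Asprv1, a protease of mature neutrophils, stood at 9.37, 7.91, 8.52, 5.07 and 7.94 CPM in PT lungs, against 2.61, 2.83, 1.80 and 3.70 CPM in CTR lungs. Il1r2, the decoy receptor for interleukin 1, Clec4d, a lectin of activated myeloid cells, and Mcemp1 each lay higher in every PT lung than in any CTR lung. Of the 24 markers, 7 lay above in this way, beside 1.51% of all tested genes. Ly6g, the antigen used to stain mouse neutrophils, stood at 1.34 to 2.10 CPM in PT lungs and 0.546 to 1.71 CPM in CTR lungs, with an adjusted p of 0.846 by edgeR's quasi-likelihood test. Stfa2l1, a stefin of neutrophils, had a log2 fold change of 1.76 ± 0.65, and reads of the near-identical stefin copies may have been split between them.

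Granule genes of neutrophil precursors, which mature in the bone marrow, were mixed. Of 7 tested, 1 was higher and 1 lower at an unadjusted p under 0.05. Mpo, myeloperoxidase, was the lower one, at 0.615, 0.593, 0.280, 0.367 and 0.0778 CPM in PT lungs, against 2.49, 3.73, 1.43 and 0.890 CPM in CTR lungs. These values rest on 1 to 9 counts in PT lungs and 19 to 50 counts in CTR lungs, and the log2 fold change was -2.42 ± 0.60. The list's median was 0.11, and it changed sign to -0.14 without PT lung 1 and -0.10 without PT lung 2. Chil1, a chitinase-like protein of neutrophils, macrophages and epithelium, was the higher one, at 728 to 1068 CPM in PT lungs and 232 to 565 CPM in CTR lungs.

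Genes with which innate immune cells sense microbes and damage were higher as a group. All 20 innate sensors and adaptors tested had a log2 fold change above 0, 12 with an unadjusted p under 0.05, and the median was 0.68 (14 and 0.78 without CTR lung 5, and 7 and 0.48 in male lungs alone). Without CTR lung 4 the count was 5 (median 0.50), and it was 7 without CTR lung 2 or PT lung 5. Fcgr3 (an activating Fc receptor), Fcer1g and Tyrobp (signalling adaptors of such receptors), Pycard (the inflammasome adaptor), Tlr2 and Pirb were higher in every PT lung than in any CTR lung. These were 6 of the 20, where 1.51% of all tested genes lay above in this way. Fcer1g, for example, stood at 95.3, 81.4, 62.0, 79.1 and 82.6 CPM in PT lungs, against 35.4, 45.8, 39.5 and 60.9 CPM in CTR lungs, with PT lung 3 just above CTR lung 5. All 21 myeloid C-type lectins, receptors for sugars of microbes and dying cells, were also above 0, 11 with an unadjusted p under 0.05, with a median of 0.68 (11 and 0.91 without CTR lung 5, and 7 in male lungs alone). Without CTR lung 4, 5 lectins were higher (median 0.53), and 6 without CTR lung 2. Cd209a, a lectin of monocyte-derived dendritic cells, stood at 14.1, 12.8, 11, 12.2 and 13.5 CPM in PT lungs, against 8.5, 6.86, 4.61 and 8.05 CPM in CTR lungs.

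**Figure D2:**
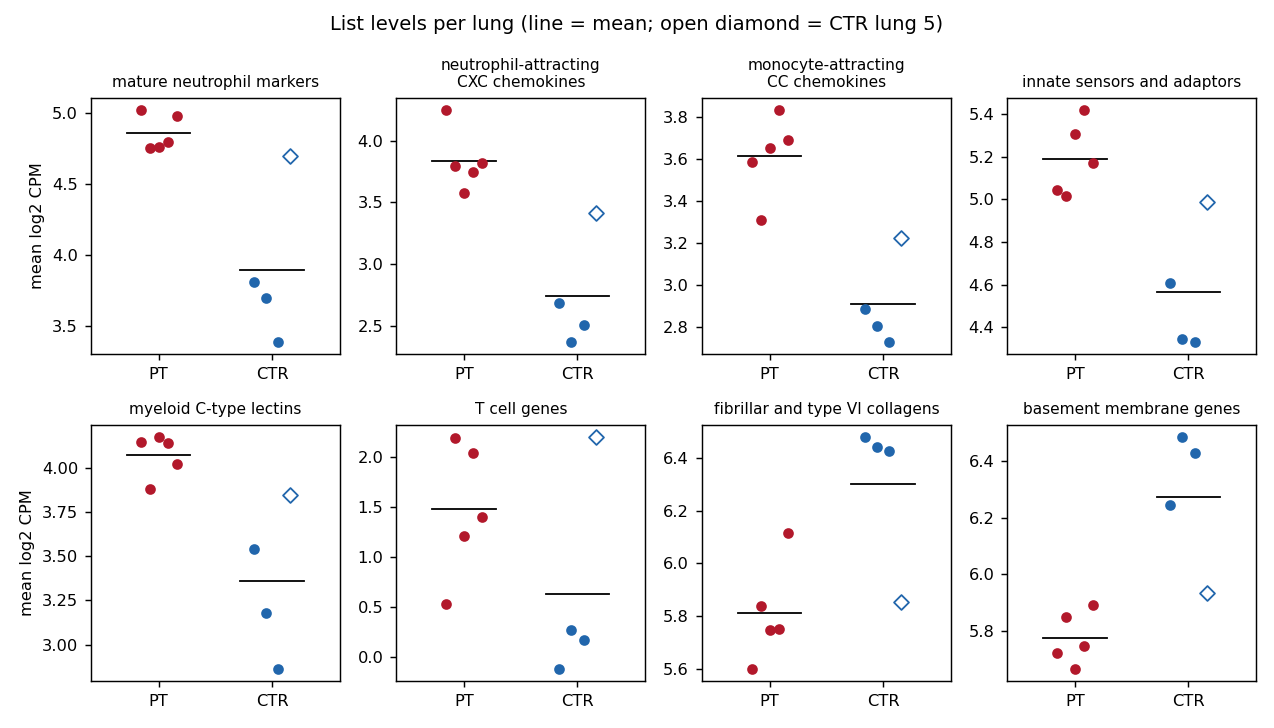
Mean log2 CPM of 8 gene lists in each lung, PT on the left and CTR on the right. The line is the group mean and the open diamond CTR lung 5, which stands at 4.70 in mature neutrophil markers, 2.20 in T cell genes and 5.85 in fibrillar and type VI collagens, near the PT lungs each time.

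Macrophage genes split. The 3 chains of C1q, the recognition molecule of the classical complement pathway and a mark of interstitial macrophages, were higher together. C1qb stood at 54.6, 38.2, 47.0, 79.4 and 60.8 CPM in PT lungs, against 22.6, 32.1, 25.3 and 30.8 CPM in CTR lungs, and the log2 fold change was 1.02 ± 0.22. Those of C1qa and C1qc were 0.91 ± 0.22 and 0.77 ± 0.22. C1q was among the results that did not rest on CTR lung 5 (1.07 for C1qb without it), and in male lungs alone it was 0.90. Mmp12, the macrophage elastase, stood at 18.5, 14.4, 25.8, 43.1 and 18.5 CPM in PT lungs, against 12.6, 8.28, 6.68 and 9.41 CPM in CTR lungs. Across the 17 C1q and interstitial macrophage genes, however, 5 were higher and 1 lower at an unadjusted p under 0.05, with a median of 0.20, and the scavenger receptor Stab1 was the lower one (-0.58 ± 0.18). Of 17 monocyte genes, 3 were higher and 1, Ace, was lower (median 0.57). Without CTR lung 5, 8 were higher, and 1 was without CTR lung 1, 2 or 4 or PT lung 2 or 5. The itaconate enzyme Irg1 of activated macrophages (2.42 ± 0.86), and Wfdc17 (2.17 ± 0.51) and Tarm1 (1.88 ± 0.57) of activated myeloid cells, were also higher at an unadjusted p under 0.05, and CTR lung 5 was the highest control for all 3. Without it the log2 fold changes were 3.97 for Irg1, 2.87 for Wfdc17 and 2.58 for Tarm1.

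Lymphoid lists were less even. Of 14 NK and cytotoxic genes, 4 were higher at an unadjusted p under 0.05 (Nkg7, Ncr1, Klre1 and Ifng), with a median of 0.78 (10 and 1.08 without CTR lung 5). The count was 7 without PT lung 6, 2 without CTR lung 4 or PT lung 5, and 1 in male lungs alone. Ncr1, the receptor NKp46 that marks NK cells, stood at 33.3, 36.3, 40.5, 50.3 and 30.5 CPM in PT lungs, against 22.0, 24.6, 20.1 and 27.6 CPM in CTR lungs. T cell genes were low in these athymic mice, with a mean log2 CPM of 0.53 to 2.19 in PT lungs and -0.12 to 2.20 in CTR lungs. Their call turned on CTR lung 5, the highest of the PT and CTR lungs: 2 of 18 were higher with it (median 0.55) and 12 without it (median 1.69), while leaving out CTR lung 4 or PT lung 5 gave 0. Of 15 B cell and plasma cell genes, 1 was higher (Derl3, a gene of secretory cells), with a median of 0.22. Without CTR lung 5, 2 were higher (median 0.62), and 12 when the model held only the PT and CTR lungs as well. Of 13 dendritic cell genes, 4 were higher (Cd209a, Ccl22, Siglech and Batf3), with a median of 0.34. Without CTR lung 5 there were 5 (median 0.77), and without PT lung 5 there were 2. Over all tested genes the share that was higher was 2.93%.

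Acute phase and endoplasmic reticulum genes formed smaller groups. The lists of this report share some genes, so their counts do not add up. S100a8 and S100a9 were described above with the neutrophil markers, Derl3 with the B cell genes, and Cxcl9 is both a homing chemokine and an interferon-stimulated gene. Of 14 acute phase genes, 5 were higher at an unadjusted p under 0.05 (Saa3, Steap4, Lcn2, S100a8 and S100a9), 0 lower, and the median was 0.54. The count was 3 without CTR lung 1, 2 or 4 or PT lung 1. Lcn2, the siderophore-binding lipocalin 2, stood at 93.34 to 193 CPM in PT lungs and 66.89 to 93.27 CPM in CTR lungs. Haptoglobin (Hp) had a log2 fold change of 0.05, with overlapping lungs. Of 19 genes of the interleukin 1 and 6 systems, Il1r2, Il1rn and Socs3 were higher, all known brakes on these pathways. Il1b stood at 138 to 239.8 CPM in PT lungs and 83.2 to 217 CPM in CTR lungs, and Il6 at 0.593 to 1.18 CPM in PT lungs and 0.425 to 2.62 CPM in CTR lungs, with no separation. Of 21 genes of protein folding in the endoplasmic reticulum, 6 were higher at an unadjusted p under 0.05 (Sdf2l1, Manf, Derl3, Xbp1, Hspa5 and Creld2), with a median of 0.25. PT lung 5 was highest for Manf (185 CPM, against 89.8 to 131 in the other PT lungs and 55.8 to 86.6 in CTR lungs). Without CTR lung 5, 3 of the 21 were higher, and likewise without PT lung 5. In male lungs alone, 2 were.

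Adipocyte markers also lay higher in PT lungs, in 4 of 10 genes at an unadjusted p under 0.05 (Thrsp, Fabp4, Retn and Pck1), and the median was 1.14. Fabp4, the fatty acid carrier of adipocytes, macrophages and capillary endothelium, stood at 26, 17.3, 38.4, 112 and 19.6 CPM in PT lungs, against 14.4, 16, 3.92 and 16.3 CPM in CTR lungs. PT lung 5, a female, was by far the highest and CTR lung 4 by far the lowest. Averaged over the list, log2 CPM was 2.46 to 4.31 in PT lungs and 0.36 to 2.751 in CTR lungs. In male lungs alone the median was 0.26, without PT lung 5 it was 0.42 and without CTR lung 4 it was 0.80, and the part of fat tissue in the dissected lungs was not tested.

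Genes of the basement membrane lay in the other direction. Of 28 basement membrane genes tested, 21 were lower and 0 higher at an unadjusted p under 0.05, and the median log2 fold change was -0.57, where 4.73% of all tested genes were lower. Averaged over the list, log2 CPM was 5.72, 5.85, 5.66, 5.75 and 5.89 in PT lungs, against 6.24, 6.49, 6.43 and 5.93 in CTR lungs. The groups did not overlap, with CTR lung 5 just above PT lung 6. Without CTR lung 5 there were again 21 lower genes (median -0.71), without CTR lung 4 there were 17 (median -0.50), and in male lungs alone 10 (median -0.46). All 6 chains of type IV collagen, the network-forming collagen of basement membranes, were among the lower genes. Col4a1 averaged 555 ± 77.0 CPM in PT lungs (SD, n = 5) and 853 ± 186 CPM in CTR lungs (SD, n = 4), with a log2 fold change of -0.62 ± 0.19. Col4a5 stood at 65.3, 85.0, 87.8, 64.0 and 100.1 CPM in PT lungs, against 136, 148, 152 and 105 CPM in CTR lungs, and Col4a3 at 129, 181, 174, 129 and 180.4 CPM in PT lungs, against 279, 276, 262 and 239 CPM in CTR lungs.

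Hspg2, which encodes the proteoglycan perlecan, had the lowest log2 fold change of the list. It stood at 92.8, 129.7, 83.5, 98.7 and 96.9 CPM in PT lungs, against 172, 252, 227 and 134 CPM in CTR lungs (log2 fold change -0.97 ± 0.27). Lama3, Col4a3, Col4a4, Col4a5 and Lama5 were likewise lower in every PT lung than in any CTR lung. With Hspg2 these were 6 of the 28 genes of the list, where 1.87% of all tested genes lay below in this way. Laminins of all chain types took part: Lamb2 (-0.64 ± 0.17), Lamb1 (-0.59 ± 0.17), Lama3 (-0.83 ± 0.27) and Lamc1 (-0.56 ± 0.19). Nid1 and Agrn, the linkers nidogen 1 and agrin, were lower at an unadjusted p under 0.05. Col15a1 (0.08), Col18a1 (-0.13) and Lama1 (0.11) differed little, with SE of 0.31, 0.21 and 0.50.

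**Figure D3:**
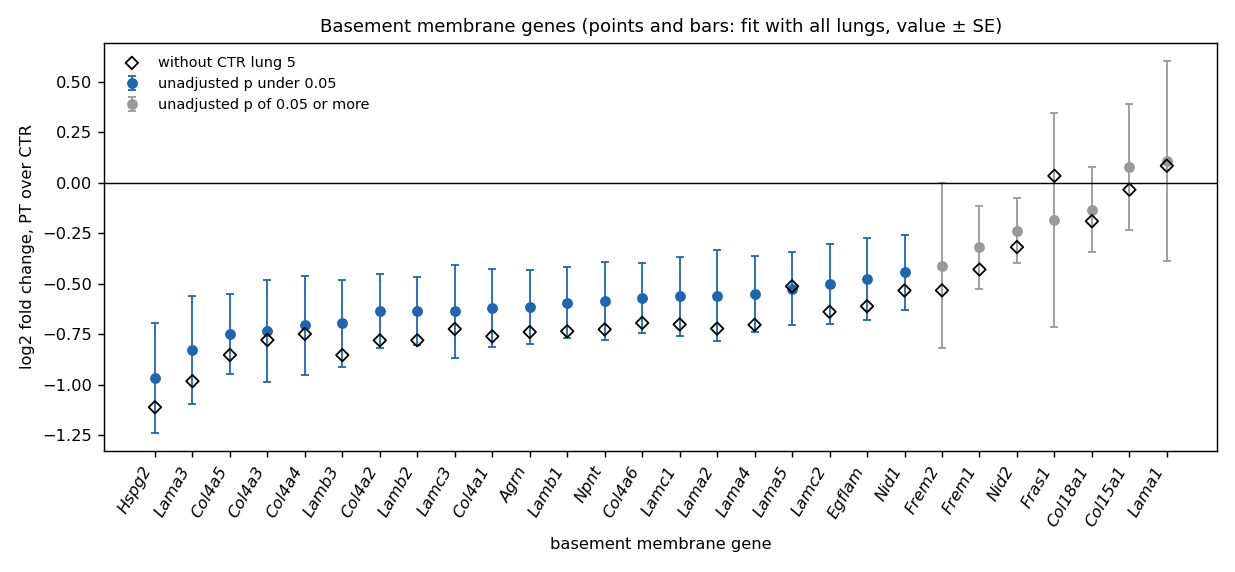
Log2 fold change of the 28 basement membrane genes in PT over CTR lungs, with SE bars, and open diamonds for the values without CTR lung 5. The 21 genes with an unadjusted p under 0.05 lie between -0.97 (Hspg2) and -0.44 (Nid1), all below 0.

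Gene length moved with this group of results. The tested genes were put in 4 classes of equal size by exonic length. Among the longest class, 427 were lower (10.8% of that class) and 31 higher (0.782%) at an unadjusted p under 0.05. Among the shortest class, 30 were lower (0.756%) and 230 higher (5.79%). Of the 28 basement membrane genes, 26 were in the longest class and 20 of these were lower, with a median of -0.57, beside -0.09 over the longest class. Of the CXC chemokine group, 6 of 8 were in the shortest class, where the median over all genes was 0.14. That class also held 13 of 24 mature neutrophil markers and 11 of 21 myeloid C-type lectins. It held 10 of 17 CC chemokines and receptors and 9 of 20 innate sensors and adaptors. The mean log2 CPM of the longest minus the shortest class was 1.49, 1.88, 1.84, 1.87 and 1.76 in PT lungs, against 2.19, 1.81, 2.05 and 2.01 in CTR lungs. PT lung 1 was lowest and CTR lung 1 highest, and CTR lung 2 lay among the PT lungs. The part of length in these results was not tested.

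**Figure D4:**
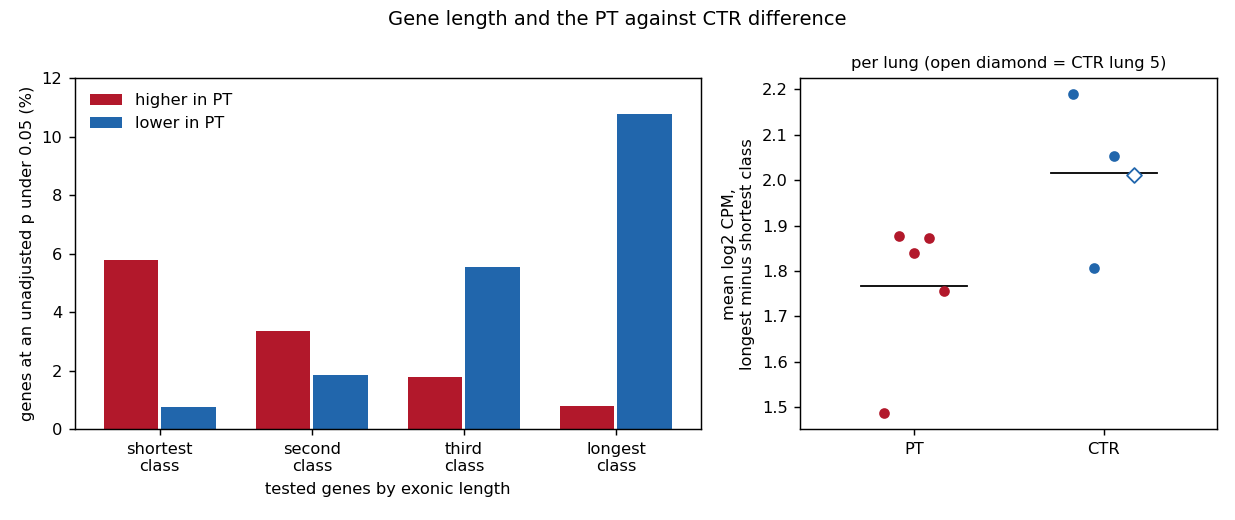
Left, percent of tested genes higher (red) and lower (blue) in PT lungs, for p under 0.05 before adjustment, by class of exonic length. Right, mean log2 CPM of the longest minus the shortest class in each lung, PT on the left. The lower share is 10.8% in the longest class and 0.756% in the shortest.

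Other structural genes followed with smaller differences. Of 13 fibrillar and type VI collagens, all were below 0 and 5 were lower at an unadjusted p under 0.05 (Col6a1, Col16a1, Col6a2, Col12a1 and Col1a2), with a median of -0.51 (8 and -0.65 without CTR lung 5, and 0 in male lungs alone). Col6a1 stood at 153, 166, 132, 139.8 and 209 CPM in PT lungs, against 233, 279, 276 and 154 CPM in CTR lungs, where CTR lung 5 lay within the PT range. Col1a1 had a log2 fold change of -0.77 ± 0.38 (adjusted p = 0.664, edgeR's quasi-likelihood test). Of 17 matrix-binding integrins, 4 were lower (Itgb4, Itga9, Itga3 and Itga8), and 0 higher. The number lower was 1 without CTR lung 4, 2 without CTR lung 2 and 0 in male lungs alone. The longest class by exonic length held 11 of the 13 collagens, 4 of them lower, and 9 of the 17 integrins, 3 of them lower. In that class 10.8% of all genes were lower, and the part of length was not tested. Fibronectin, Fn1, stood at 176 to 324 CPM in PT lungs and 283 to 458 CPM in CTR lungs (adjusted p = 0.714, edgeR's quasi-likelihood test). Among 27 metalloproteases and their inhibitors, 3 were higher (Timp1, Mmp12 and Timp4) and 3 lower (Adamts1, Mmp15 and Mmp2). Leaving out CTR lung 2 or 4, or PT lung 3 or 5, left 1 lower. Over all tested genes, 2.93% were higher and 4.73% lower.

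Markers of the cells that build and line these matrices were tested next. Of 19 endothelial genes, 5 were lower at an unadjusted p under 0.05 and 0 higher (median -0.27), led by Vwf, von Willebrand factor (-0.81 ± 0.24), and Cdh5, the endothelial cadherin (-0.55 ± 0.18). Of 14 VEGF and angiopoietin genes, 5 were lower (Flt4, Figf, Flt1, Tek and Tie1, which are receptors apart from the ligand Figf), with a median of -0.29. In male lungs alone, 2 of these 14 were lower. Of 13 smooth muscle and pericyte genes, 4 were lower (median -0.34), with Myh11, the smooth muscle myosin, at -0.84 ± 0.25. All 4 were in the longest class by exonic length, which held 5 of the 13. Of 16 fibroblast genes, 5 were lower (median -0.30), and 5 had a log2 fold change above 0. Of 12 alveolar type 1 genes, 4 were lower (median -0.29). Acta2, the smooth muscle actin of activated fibroblasts, stood at 99.5 to 175 CPM in PT lungs and 102 to 208 CPM in CTR lungs, and Vim had a log2 fold change of 0.03 ± 0.16. In male lungs alone, 1 endothelial, 1 smooth muscle, 1 alveolar type 1 and 0 fibroblast genes were lower. Without CTR lung 5, 9 endothelial, 7 fibroblast, 5 alveolar type 1 and 4 smooth muscle genes were. Without CTR lung 4 the counts were 3 endothelial, 1 fibroblast, 1 alveolar type 1 and 3 smooth muscle genes. Fibroblast genes numbered 3 without PT lung 3 or 5, alveolar type 1 genes 2 without CTR lung 2 or PT lung 3, and endothelial genes 8 without PT lung 1 or 2. Of 15 TGF-beta genes, the co-receptor Tgfbr3 and the inhibitory Smad7 and Smad6 were lower and the target Tgfbi was higher, while Tgfb1 had a log2 fold change of -0.12 ± 0.21. The number of lower TGF-beta genes was 1 without CTR lung 4, PT lung 3 or PT lung 5, and 0 in male lungs alone.

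Among lower genes, the smallest p was that of Fosb, a transcription factor of the AP-1 family that cells switch on within minutes of a stimulus. It stood at 9.60, 5.47, 6.56, 2.42 and 5.68 CPM in PT lungs, against 14.8, 20.4, 33.6 and 22.7 CPM in CTR lungs, with a log2 fold change of -1.94 ± 0.38 and an adjusted p of 0.368 (edgeR's quasi-likelihood test). Its relative Fos stood at 74.2, 45.5, 109.5, 31.2 and 93.3 CPM in PT lungs, against 123, 135, 168 and 275 CPM in CTR lungs. Of 26 immediate early genes, 6 were lower at an unadjusted p under 0.05 and 0 higher (median -0.32), and Egr1 overlapped widely, at 25.5 to 167 CPM in PT lungs and 74.9 to 239 CPM in CTR lungs. CTR lung 5 had the highest mean log2 CPM of this list (6.54), and without it 1 gene was lower, 2 were higher and the median was -0.09. Per1, a clock gene that also responds to glucocorticoids, stood at 17.3 to 49.6 CPM in PT lungs and 56.9 to 93.3 CPM in CTR lungs.

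The other lower genes with the smallest p, beside Fosb and Mpo, were Scube1 (a secreted protein of platelets and endothelium), Amot (angiomotin), Myh10 (a non-muscle myosin), Reck (a membrane inhibitor of metalloproteases), Tns1 (tensin 1), Vwa8, and the protocadherins Pcdhga7 and Pcdhb4. Scube1 stood at 29.2, 33.9, 26.3, 23.7 and 29.3 CPM in PT lungs, against 45.0, 42.9, 50.7 and 39.5 CPM in CTR lungs (log2 fold change -0.65 ± 0.13). Protocadherin genes of a cluster share sequence, so their reads can be split among them. Lower genes with the largest non-overlapping folds included Cubn, Fbxl21, Syn3 and Grik3, each at 6.03 CPM or less in every PT and CTR lung. Of the other genes of interest in the study, Prg2, of eosinophil granules, stood at 0.0768 to 0.953 CPM in PT lungs and 0.468 to 4.47 CPM in CTR lungs, and Prg4, lubricin, at 0.882 to 6.46 CPM in PT lungs and 0.0921 to 2.20 CPM in CTR lungs, both with overlap. Csf2 was at 2.23 to 4.48 CPM in PT lungs and 1.75 to 2.19 CPM in CTR lungs.

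**Figure D5:**
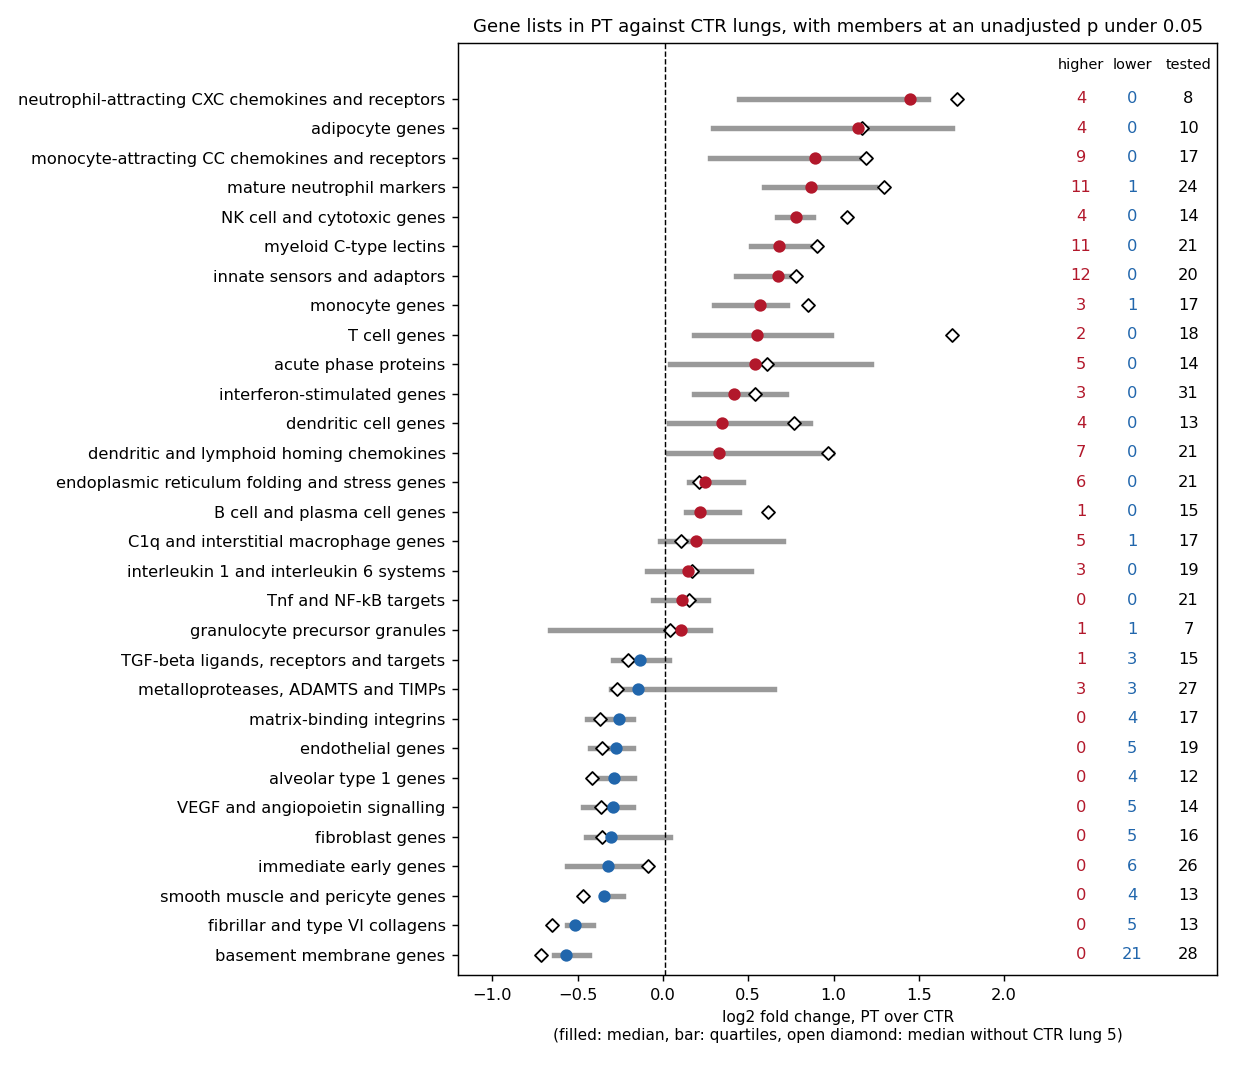
Median log2 fold change of 30 gene lists in PT over CTR lungs (filled points), with quartiles of the members (bars) and the median without CTR lung 5 (open diamonds). Columns give the members higher and lower at an unadjusted p under 0.05 and those tested, from 4 higher and 0 lower of 8 in the neutrophil-attracting CXC chemokines (median 1.45) to 0 higher and 21 lower of 28 in the basement membrane genes (-0.57). The dashed line is the median of all tested genes, 0.01.

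Set against the SCR-treated lungs instead, 6 genes (0.0378% of those tested) passed an adjusted p under 0.05 with edgeR's quasi-likelihood test, all higher in PT lungs: Stk32c, Saa3, Cxcl1, Timp1, Cxcl2 and Pgm5. Stk32c had a log2 fold change of 2.09 (adjusted p = 0.00107) and Saa3 one of 3.24 (adjusted p = 0.0219). Mean Saa3 levels were 44.9 CPM in PT lungs, 4.75 CPM in SCR lungs and 4.74 CPM in CTR lungs. Saa3 was thus higher in PT lungs than in either other group, and the comparisons share the PT lungs. Without SCR lungs 1 to 3, 1 gene passed, and likewise 1 without PT lung 1, PT lung 5 or PT lung 6.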

How the data were processed

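RNA from whole lungs of 5 PT, 4 CTR and 6 SCR mice was sequenced, 1 library per lung. The authors trimmed reads with cutadapt 1.15, removed contaminants with Bowtie2 2.3.3.1, aligned with STAR 2.5.2b and SAMtools 1.5, and deposited featureCounts 1.5.3 counts per gene (GRCm38, Ensembl 82) whose strand setting is not given in the sources used here. The authors also deposited a GC percent per gene and FPKM values normalised with EDASeq for 16137 genes. Here, counts were filtered (filterByExpr), scaled by TMM and tested with edgeR 4.0.16 (quasi-likelihood, robust, all 15 lungs, Benjamini-Hochberg) in R 4.3.3. The SE is the log2 fold change over the root of F. Alternatives used DESeq2 1.42.0, limma 3.58.1 on log2(FPKM + 1) or + 0.1, other scalings and filters, sex, GC, replicate numbers and lungs left out. P-values measure only the spread between these lungs. The test was checked on simulated data.

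Members and gene lists were chosen with earlier results of these data known. Named genes were the 10 with the smallest p in each direction, the 10 with the largest non-overlapping fold in each direction, at most 20 called by DESeq2, the 4 with the smallest p of each list described, and genes named in the study. Others, such as Ccl2, Cxcl15, Ly6g, Tlr2 and Lama1, were chosen after their values were seen. Gene positions came from GENCODE vM21 and promoters from RefSeq (GRCm38.p6), where the run of letters was searched after the promoters had been read.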

Additional observations from a re-analysis of the deposited data

Results flagged for a closer look

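Among 120 checks of list levels within PT or CTR lungs, 8 found 1 lung far from the rest of its group by Dixon's test, which chance gives in about 1 of 20 groups. CTR lung 5 accounted for 5 of them. Its mean log2 CPM was 6.2077 for monocyte genes (5.1436 to 5.2833 in the other CTR lungs), 3.515 for dendritic cell genes (2.8278 to 2.9025), 2.2032 for T cell genes (-0.1213 to 0.2734), 5.8539 for fibrillar and type VI collagens (6.4256 to 6.4798) and 5.5746 for smooth muscle and pericyte genes (6.0854 to 6.113). PT lung 6 was high in glucocorticoid response genes (5.6757, against 4.9821 to 5.1707 in the other PT lungs) and in skeletal muscle genes (1.7983, against 1.2305 to 1.3714). PT lung 5 was high in adipocyte genes (4.3105, against 2.4558 to 2.9444).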

How the results depend on the processing

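The count of 0 genes at an adjusted p under 0.05 was 11 with the likelihood ratio test, 20 with DESeq2, 3 and 2 with limma on FPKM (pseudocount 1 and 0.1), and 1 in male lungs. With 1 lung left out of the model of all groups, the count was 0 to 3. With 1 left out of the model of PT and CTR lungs only, it was 0 to 176. The leave-outs from that second model were added after the data were seen. Genes higher at an unadjusted p under 0.05 were 712 with no filter, 753 with only PT and CTR lungs, and 984 without SCR lungs 1 to 3. With 1 lung left out they were 255 to 745 in the model of all groups and 437 to 1085 in that of PT and CTR lungs. Lower genes were 370 by library size only, 236 in male lungs and 1189 with a GC offset. With 1 lung left out they were 317 to 1073 in the model of all groups and 486 to 1212 in that of PT and CTR lungs. By library size only, 64.4% of such genes were higher, against 38.2% with TMM. Where log2 fold changes also had to exceed 1 in either direction, higher genes were 412 with no filter, 82 with sex as a covariate, 47 on FPKM (pseudocount 1) and 74 to 398 with 1 lung left out of either model, and lower genes 184, 52, 15 and 25 to 49. PT against SCR gave 11 genes with no filter, 183 with the likelihood ratio test, 231 with DESeq2, 1 without SCR lungs 1 to 3, 19 with sex, 11 with a GC offset, 2 on FPKM (pseudocount 1) and 1 to 9 with 1 PT or CTR lung left out of the model of all groups. The cause was not tested.

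Same-numbered PT and CTR lungs had residual correlations of -0.2996, 0.05656 and 0.1584 and none matched its own number best. With so few shared numbers, these values cannot decide whether the numbers pair the lungs. With the replicate block, 0 genes passed the adjusted threshold, 320 were higher and 292 lower, Mgst1 turned to -0.1472 and Tgfb1 to 0.04018, and the medians of ribosomal proteins and oxidative stress genes to -0.009762 and -0.06439. In male lungs Pck1 turned to -0.104, Aldh1a1 to 0.0458, Tgfb1 to 0.07907 and Acta2 to 0.01034. Aldh1a1 was 0.228 with sex as a covariate (glucocorticoid median 0.1675) and 0.5892 and 0.5895 on FPKM. With 1 lung left out of either model, Aldh1a1 was -0.2601 to 0.04867, above 0 without CTR lung 2, and Vim -0.06842 to 0.09891, below 0 without CTR lung 5, PT lung 1 (model of all groups only) or PT lung 5. In 148 of 154 named genes no alternative turned the sign. Many of them were named for a small p or a large fold in these same lungs, so a kept sign is no independent support. Of 61 list medians, 16 changed sign under some alternative, 13 of them only within the spread between lungs.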

Other observations

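The other 30 gene lists had medians of the log2 fold change between -0.28 (skeletal muscle genes) and 1.14 (stefins), with at most 2 members higher and 3 lower at an unadjusted p under 0.05 in any of them. The median of the stefins was 2.453 without CTR lung 5, with 4 of 5 higher, and 0.78 without CTR lung 4, with 1 higher.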
